A study of Mus musculus with 27 samples.

Results

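S100a8, S100a9, Lcn2, Ngp, Retnlg, Camp, Ltf, Fgr, Ccr1 and Pirb are 10 genes of neutrophils and of the acute phase response, of 51826 features in the deposited gene table. They were matched by gene name in hippocampus libraries of ICR mice, an outbred strain. They were chosen by measured values, because Lcn2, S100a9, Ngp and Retnlg were high in the sham saline libraries and near 0 in the OVX saline libraries. Their levels in those libraries are therefore a description and not a test. Of the 10 genes, 9 passed the filter on low counts, and Camp, with 45 counts in all, did not.

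The gene expression libraries came from 4 groups: sham-operated mice given saline (sham saline, n = 3), sham-operated mice given xanthohumol (sham Xmo, n = 4), ovariectomized mice given saline (OVX saline, n = 4) and ovariectomized mice given xanthohumol (OVX Xmo, n = 4). Ovariectomy removes the ovaries, the main source of estrogen, and xanthohumol is a prenylated flavonoid of hops. A further 12 libraries, 3 per group, measured miRNAs, and the labels do not tie them to the gene expression libraries. Doses, times, ages and the number of animals behind a library are not given in the labels, so p-values measure only the spread between these samples, which may be technical.

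Neutrophils are short-lived white blood cells that load granules with antimicrobial proteins while they mature in the bone marrow and are then carried by the blood. They are rare in healthy brain tissue, where they lie mostly inside vessels. The acute phase response is the rise of defence and transport proteins that follows inflammatory cytokines. One of its products is Lcn2, which reactive astrocytes and endothelial cells can also make.

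By role, S100a8 and S100a9 encode the subunits of calprotectin, the calcium- and zinc-binding protein of the neutrophil cytosol. Lcn2 encodes lipocalin 2, which binds bacterial iron carriers, and Ltf encodes lactoferrin, which binds iron itself. Ngp and Camp encode cathelicidin-related granule proteins, and Retnlg encodes a resistin-like secreted protein. Fgr is a Src family kinase of myeloid cells, Ccr1 is a chemokine receptor, and Pirb is an inhibitory receptor for MHC class I. In the annotation of GRCm38.p6, S100a8 (chromosome 3, 90668978 to 90670035) and S100a9 (chromosome 3, 90692632 to 90695721) lie 22596 bases apart. Camp, Ngp, Ltf and Ccr1 are all on chromosome 9, with 570129 bases between Camp and Ngp and 596258 between Ngp and Ltf. No listed gene overlapped another annotated gene. Pirb has near-identical relatives in its receptor family, so its counts are uncertain.

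Because several of the genes moved together, their start regions were searched for motifs of factors known in myeloid cells and in the acute phase response. The windows were 300 bases of RefSeq sequence in GRCm38.p6, from 250 bases before to 50 after each start site, and all 10 genes matched. The C/EBP motif TTGCNNAA occurred on either strand in 5 of the 10 windows (S100a9, Lcn2, Ngp, Retnlg and Ltf), against 10.8% of all 32851 windows. The PU.1 motif AGGAAG occurred in 6 of 10, against 35.4% of all windows. The NF-kB motif (GGG, any 2 bases, then TTTCC) and the STAT motif TTCNNNGAA occurred in 0 of 10, against 1.63% and 8.3%. No match of one motif overlapped a match of another. The 5 stretches with a C/EBP match are shown with the match in capitals, limited to bases outside the gene's own span in the deposited table. The Lcn2 window lay wholly inside that span, so 30 bases around its match are shown.
Lcn2, chr2:32387937-32387966, minus strand: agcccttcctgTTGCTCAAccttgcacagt
S100a9, chr3:90695722-90695971, minus strand: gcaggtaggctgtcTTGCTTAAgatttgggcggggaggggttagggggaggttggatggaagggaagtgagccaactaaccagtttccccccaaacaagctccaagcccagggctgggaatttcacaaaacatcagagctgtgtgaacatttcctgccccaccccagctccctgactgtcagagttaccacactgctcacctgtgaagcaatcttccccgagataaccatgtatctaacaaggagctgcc
Ngp, chr9:110419558-110419746, plus strand: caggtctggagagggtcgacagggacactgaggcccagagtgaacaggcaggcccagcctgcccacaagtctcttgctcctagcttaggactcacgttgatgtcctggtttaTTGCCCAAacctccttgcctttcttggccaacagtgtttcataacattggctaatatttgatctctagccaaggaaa
Retnlg, chr16:48872358-48872607, plus strand: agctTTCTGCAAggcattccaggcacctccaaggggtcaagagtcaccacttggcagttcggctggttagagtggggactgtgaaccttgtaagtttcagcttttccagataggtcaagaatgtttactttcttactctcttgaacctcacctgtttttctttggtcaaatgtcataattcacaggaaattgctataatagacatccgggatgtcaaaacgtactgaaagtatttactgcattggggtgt
Ltf, chr9:111019042-111019270, plus strand: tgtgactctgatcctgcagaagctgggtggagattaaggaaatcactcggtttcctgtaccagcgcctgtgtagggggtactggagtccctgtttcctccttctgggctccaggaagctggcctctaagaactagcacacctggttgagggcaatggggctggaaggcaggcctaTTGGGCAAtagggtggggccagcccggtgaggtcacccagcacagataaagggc

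The first base of the match lay 216 bases before the start site in Lcn2, 236 in S100a9, 138 in Ngp, 246 in Retnlg and 75 in Ltf. A second match in Ngp began 11 bases before its start. S100a8, the partner of S100a9, had no C/EBP match in its window. A match is a description of letters and not a measured binding site.

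The total count of a gene expression library lay between 20848661 and 39140593. The library of sham saline replicate 2 stood apart. Protein genes of the mitochondrial genome took 34.1% of its counts, against 11.9% to 24.2% in the other 14 libraries. Of 19969 genes tested, 15% had their highest level in it. Levels below are CPM (counts-per-million, relative to the library total), scaled by TMM factors, and that library's factor was 0.726. Markers of hippocampal neurons were detected throughout, with 14 of 14 listed genes tested and a summed level of 3269 to 4977 unscaled CPM. The main results that rest on this library are given with and without it.

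The 10 genes took 5228 counts in all 15 libraries, of which 3121 were in sham saline replicate 2. Their counts were 344, 3121 and 467 in the sham saline libraries and 115, 111, 51 and 326 in sham Xmo. The OVX saline libraries held 66, 25, 44 and 20, and the OVX Xmo libraries 155, 148, 108 and 127. Every sham saline library lay above every library of the other groups, and every OVX Xmo library above every OVX saline library, while sham Xmo spanned the OVX Xmo range. All 10 genes had their highest level in sham saline replicate 2. In bulk tissue, fewer cells of a type and less RNA per cell cannot be told apart.

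**Figure D1:**
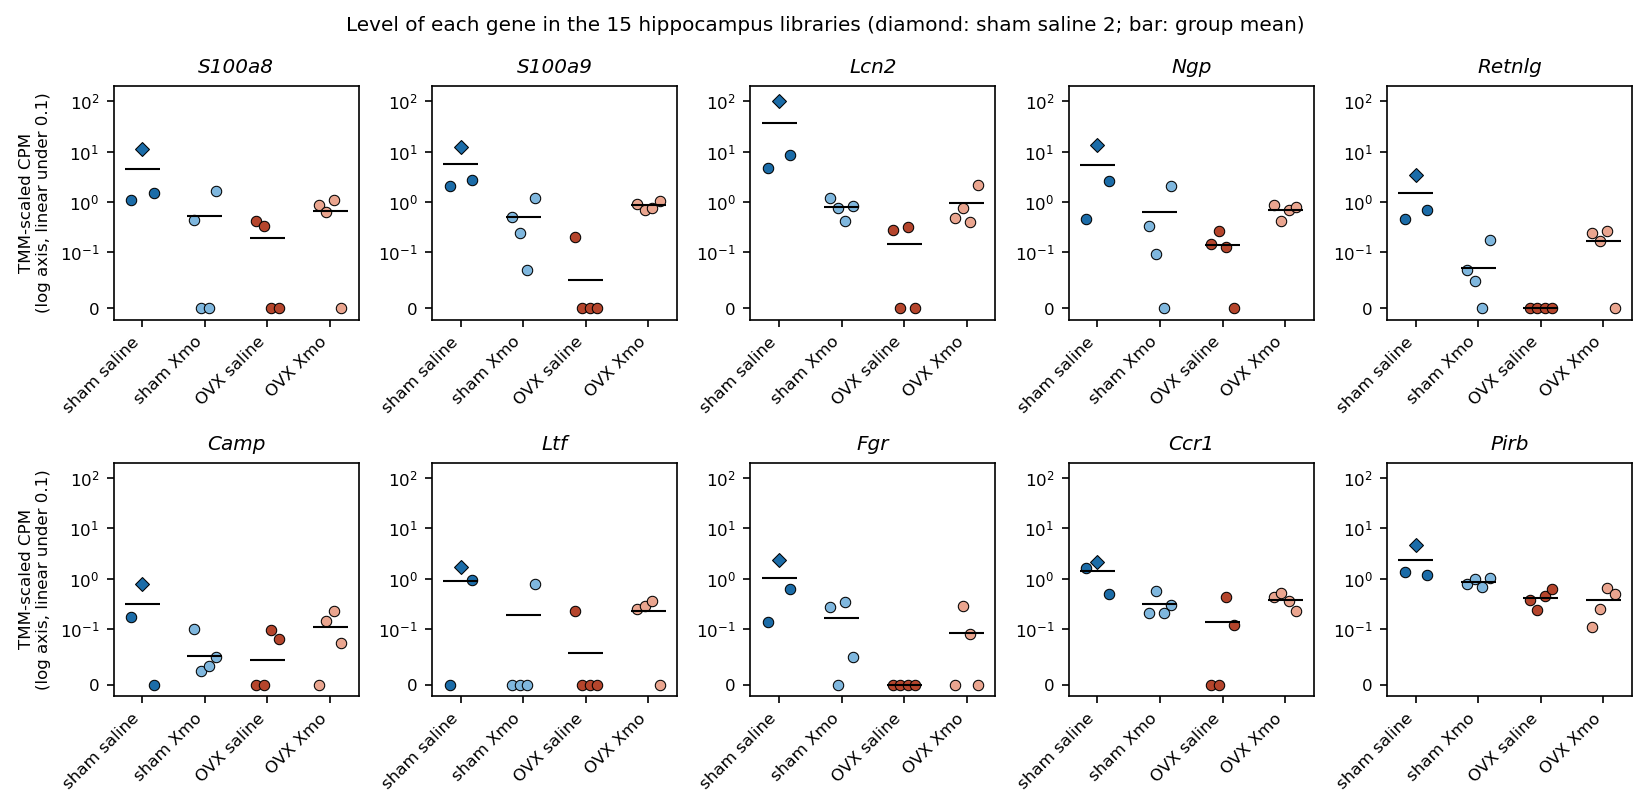
TMM-scaled CPM (log axis, linear under 0.1) of each gene in the 15 libraries by group, with a diamond for sham saline replicate 2 and a bar for the group mean. The diamond is the highest point in all 10 panels, and Lcn2 reaches 98.6 CPM there.

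Lcn2, the most abundant of the genes, was at 4.65, 98.6 and 8.42 CPM in the sham saline libraries. It was at 1.19, 0.755, 0.416 and 0.817 in sham Xmo, at 0.276, 0, 0.325 and 0 in OVX saline, and at 0.486, 0.758, 0.408 and 2.13 in OVX Xmo. The sham saline libraries lay above all others, and the OVX Xmo libraries lay above the OVX saline libraries. Replicate 2 held 85.9% of the sham saline counts of Lcn2 and stood 11.7 times above the next library of its group. The group mean was 37.2 ± 53.2 CPM (SD, n = 3) with it and 6.53 ± 2.67 (n = 2) without it.

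S100a9 was at 2.06, 12.1 and 2.75 CPM in sham saline and at 0.508, 0.243, 0.0693 and 1.19 in sham Xmo. In OVX saline it had 8 counts in replicate 1 (0.200 CPM) and 0 in the other libraries, whereas OVX Xmo held 0.917, 0.702, 0.771 and 1.04 CPM. The OVX Xmo libraries were close together, with a mean of 0.859 ± 0.153 CPM (SD, n = 4). Its partner S100a8 was at 1.12, 11.2 and 1.48 CPM in sham saline and at 0.440, 0, 0 and 1.66 in sham Xmo. It was at 0.426, 0.340, 0 and 0 in OVX saline and at 0.890, 0.646, 1.09 and 0 in OVX Xmo. The subunits did not follow each other in every library: OVX Xmo replicate 4 had 28 counts of S100a9 and 0 of S100a8, and OVX saline replicate 2 had 10 counts of S100a8 and 0 of S100a9.

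Among the granule genes, Ngp was at 0.454, 13.2 and 2.59 CPM in sham saline and at 0.339, 0.0974, 0 and 2.05 in sham Xmo. It was at 0.150, 0.272, 0.130 and 0 in OVX saline and at 0.863, 0.421, 0.680 and 0.783 in OVX Xmo, again without overlap between the OVX groups. Ltf was at 0, 1.68 and 0.944 CPM in sham saline. Outside that group it had its highest level in sham Xmo replicate 4, at 0.767, with 0 counts in the other sham Xmo libraries. Ltf was at 0.225, 0, 0 and 0 in OVX saline and at 0.243, 0.281, 0.363 and 0 in OVX Xmo. Retnlg was at 0.454, 3.36 and 0.698 CPM in sham saline and had 0 counts in all 4 OVX saline libraries. It was at 0.0677, 0.0487, 0 and 0.173 in sham Xmo and at 0.243, 0.168, 0.272 and 0 in OVX Xmo. Camp had at most 5 counts in any library but sham saline replicate 2, which had 16.

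The kinase and the receptors were at low levels. Fgr was at 0.140, 2.31 and 0.616 CPM in sham saline, had 0 counts in the OVX saline libraries, and reached at most 0.347 in sham Xmo and 0.281 in OVX Xmo. Ccr1 was at 1.64, 2.11 and 0.493 CPM in sham saline, so replicate 2 held 42.7% of its group's counts, the lowest such share of the 10 genes. It was at 0.203, 0.560, 0.208 and 0.297 in sham Xmo, at 0, 0, 0.423 and 0.122 in OVX saline, and at 0.432, 0.505, 0.363 and 0.224 in OVX Xmo. Pirb had counts in every library, at 1.33, 4.61 and 1.19 CPM in sham saline and at 0.779, 0.974, 0.693 and 1.01 in sham Xmo. It was at 0.376, 0.238, 0.456 and 0.610 in OVX saline and at 0.108, 0.253, 0.635 and 0.485 in OVX Xmo. Unlike Lcn2, S100a9 and Ngp, Pirb overlapped between the OVX groups.

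By group mean, 8 of the 10 genes had the order sham saline, OVX Xmo, sham Xmo, OVX saline. Without sham saline replicate 2 it was 7, since Camp was then highest in OVX Xmo. Fgr and Pirb were higher in sham Xmo than in OVX Xmo. The middle neighbours in that order, OVX Xmo and sham Xmo, overlapped in 9 of the 10 genes. Lcn2, for example, was at 0.944 ± 0.802 CPM in OVX Xmo and 0.793 ± 0.315 in sham Xmo (SD, n = 4 each).

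The comparison of OVX Xmo with sham Xmo asks whether surgery goes with a difference among mice given xanthohumol, and it is the comparison whose libraries the choice of genes did not use. In edgeR's quasi-likelihood test, 0 of 9 genes passed a Benjamini-Hochberg adjusted p of 0.05, where 0.01% of all tested genes passed, and 1 of 9 was under an unadjusted p of 0.05, where 10.2% of all tested genes were. DESeq2 called 76 genes of all tested here, none of the 9 among them, and edgeR 2. The log2 fold changes ran from -1.29 for Pirb to 1.12 for Retnlg. Retnlg, Ltf and Fgr did not pass the low-count filter on these groups alone, so their place in the test comes from the other groups. With only these groups in the fit, 5 of the other 6 genes were above 0, with a median of 0.25 beside -0.01 over all genes. The Pirb value had an SE of 0.52 (edgeR adjusted p = 0.423), and its groups did not overlap, which held in this direction for 2.99% of all tested genes. S100a9 was at 0.74 (SE 0.75), Lcn2 at 0.24 (SE 0.93), Ngp at 0.09 (SE 1.02) and S100a8 at 0.28 (SE 1.20). Each of these 4 values was smaller than its SE, which does not show that the groups were alike. Without OVX Xmo replicate 4 the Lcn2 value was -0.50.

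**Figure D2:**
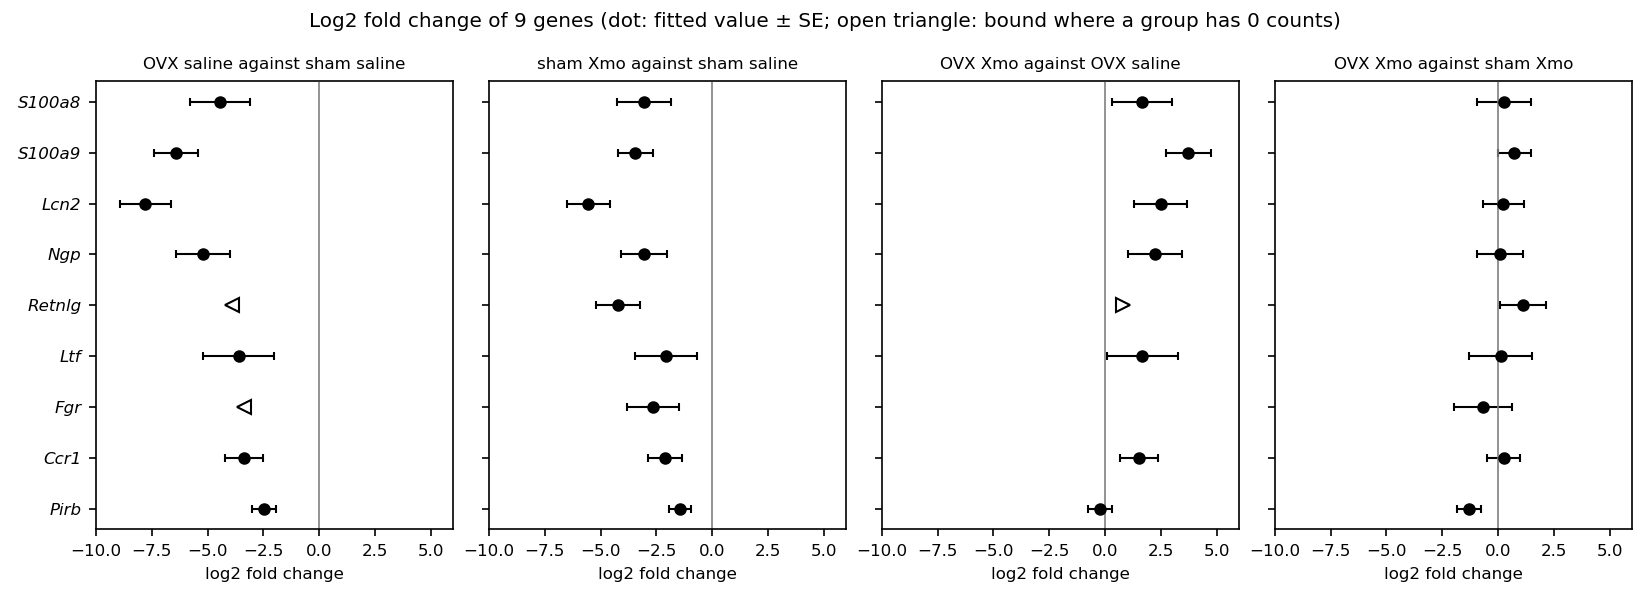
Log2 fold change of the 9 genes past the low-count filter in 4 comparisons, as the fitted value with its SE, or as an open triangle at the bound where a group had 0 counts. In the panel of OVX Xmo against sham Xmo the dots lie between -1.29 and 1.12, while all 9 lie below 0 in OVX saline against sham saline, the contrast that chose genes. Fgr has no mark in OVX Xmo against OVX saline, where no bound above 1-fold could be given.

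The remaining comparisons use libraries that chose the genes, and their counts are given beside the background only as a description. OVX saline was lower than sham saline in all 9 genes. Of these, 7 passed the test and 8 had groups without overlap, beside 2.59% and 11.6% of all tested genes in that direction. Ltf and Fgr, the latter among the 7, did not pass the low-count filter on these groups alone. Lcn2 was at a log2 fold change of -7.79 (SE 1.13) and S100a9 at -6.42 (SE 0.99). Retnlg, with 0 counts in OVX saline, was at least 15.2-fold lower, and Fgr at least 10.3-fold lower, at a floor of 3 counts per library. Without sham saline replicate 2 the count of genes past the test was 2, namely Lcn2 at -5.30 and S100a9 at -5.23. It was 4 without sham saline replicate 3 or OVX saline replicate 4, and 3 without OVX saline replicate 1 or 2.

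Against sham saline, sham Xmo was lower in all 9 genes, with 2 past the test (Lcn2 at -5.54, SE 0.95, and S100a9 at -3.44, SE 0.77), beside 0.791% of all genes, and 4 without overlap, beside 5.33%. OVX Xmo was also lower in all 9, with 2 past the test (Lcn2 at -5.30 and Pirb at -2.73), beside 0.441%, and 5 without overlap, beside 6.28%. The first count was 0 without sham saline replicate 2 or sham Xmo replicate 3 or 4, and 1 without sham saline replicate 3, sham Xmo replicate 1 or 2, OVX saline replicate 2 or 3, or OVX Xmo replicate 1, 2 or 3. The second was 0 without sham saline replicate 2 or 3, sham Xmo replicate 2, OVX saline replicate 1, 2 or 3, or OVX Xmo replicate 1, 2 or 3, and 1 without OVX saline replicate 4. These comparisons share the sham saline libraries with each other and with the one before. Fgr did not pass the low-count filter on the OVX Xmo and sham saline libraries alone. The share of mitochondrial counts was 19.0% to 34.1% in sham saline and 11.9% to 19.2% in the other groups, and its part in these differences was not tested.

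OVX Xmo against OVX saline asks whether xanthohumol goes with a difference after ovariectomy. Sham saline replicate 2 is in neither group, but it entered the filter, the scaling and the shared estimate of spread. Of the 9 genes, 8 were above 0, and 0 passed edgeR's test, beside 0% of all tested genes, while 2 of 9 had an unadjusted p under 0.05, where 4.18% of all tested genes did. DESeq2 called 3 of all tested genes and 0 of the 9. Groups did not overlap for S100a9, Lcn2 and Ngp, all higher in OVX Xmo, beside 1.39% of all genes in that direction. The log2 fold changes were 3.72 (SE 1.01) for S100a9, 2.48 (SE 1.17) for Lcn2 and 2.23 (SE 1.23) for Ngp. Retnlg, at 0 counts in OVX saline, was at least 1.72-fold higher by group mean, although OVX Xmo replicate 4 also had 0 counts. Retnlg, Ltf and Fgr did not pass the low-count filter on these groups alone, so their place among the 9 comes from the other groups. In a fit of only these groups, 5 of the other 6 were above 0 (median 1.95, beside 0.004 over all genes). In the interaction, the xanthohumol difference after ovariectomy less that after sham surgery, 2 of 9 genes were higher past the test, S100a9 and Lcn2, beside 0.27% of all genes. It too uses libraries that chose the genes.

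The make-up of the signal differed between libraries. On the deposited TPM scale, which is per length, the level of Lcn2 was 4.54 times that of S100a9 in sham saline replicate 2. The same ratio was 1.24 and 1.73 in the other sham saline libraries. It was 1.21, 1.67 and 0.357 in sham Xmo replicates 1, 2 and 4, and between 0.218 and 1.07 in OVX Xmo. Lcn2 held 61.4% of the summed TPM of the 10 genes in sham saline replicate 2 and 8.59% in sham Xmo replicate 4. Its share was 30.1%, 41.0% and 48.1% in sham Xmo replicates 1, 2 and 3, and 5.42% to 42.2% in OVX Xmo. In sham Xmo replicate 4, S100a8 held 35.4% and Ngp 17.5%. The ratio of Ngp to S100a9 lay between 0.256 and 0.402 in OVX Xmo, whose libraries differed less from each other in summed level (4.39 to 5.18 unscaled CPM) than those of sham Xmo (1.85 to 8.66).

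**Figure D3:**
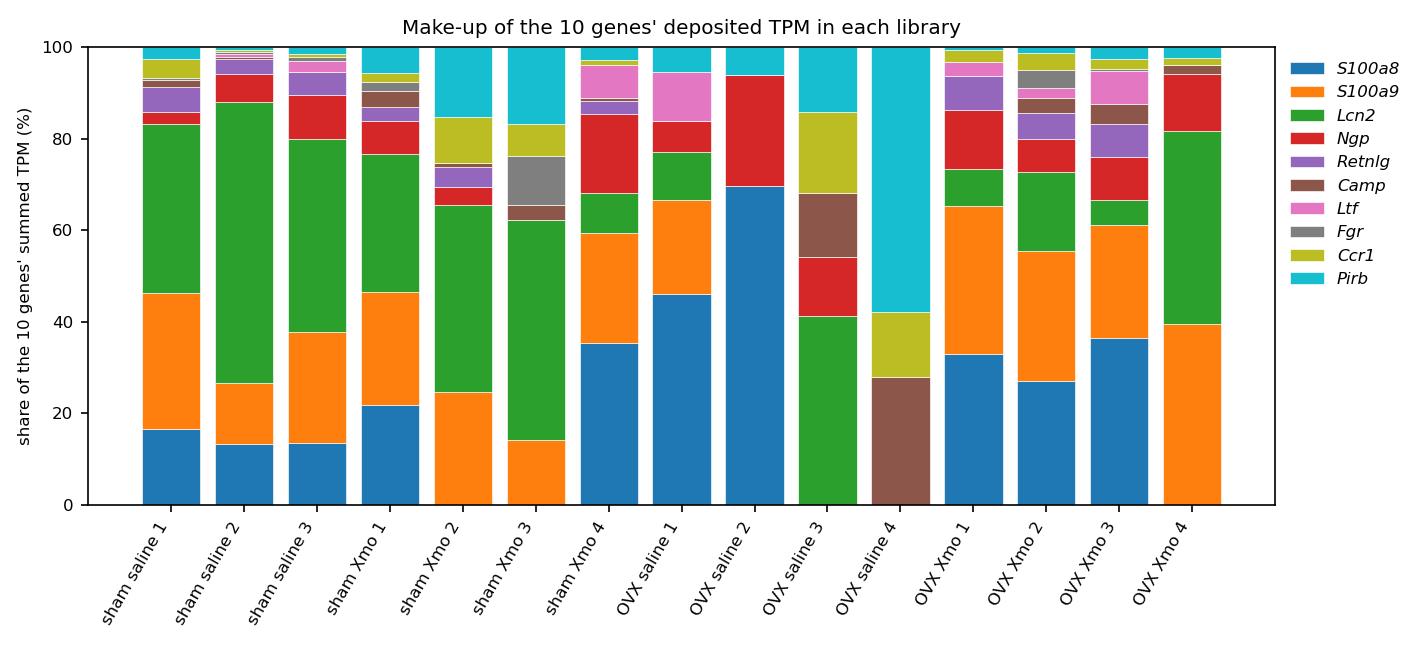
Share of each gene in the summed deposited TPM of the 10 genes, one bar per library. Lcn2 takes 61.4% in sham saline replicate 2 and 8.59% in sham Xmo replicate 4, where S100a8, S100a9 and Ngp take most of the rest.

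Markers of other cells were read in the same libraries as unscaled summed CPM. Red blood cell genes, 13 in the table with Hbb-bs, Hba-a1 and Hba-a2 the most abundant, summed to 1210, 362 and 2152 in sham saline. The value of 362 in replicate 2 was the lowest of the 15 libraries, in the library where the 10 genes were highest. The highest red blood cell sum, 5415, was in sham Xmo replicate 4, which also had the highest level outside sham saline of S100a8, S100a9, Ngp, Ltf and Pirb. That library had the highest choroid plexus sum too, at 11881, with Ttr at 8050 TMM-scaled CPM. The red blood cell sum was 946 to 1472 in OVX saline and 868 to 2090 in OVX Xmo, so the OVX groups overlapped. In OVX Xmo against sham Xmo, all 15 choroid plexus genes had a log2 fold change below 0, with a median of -1.86 and 0 past the test, and 6 of 9 red blood cell genes tested were below 0, with a median of -0.13. The part of blood or choroid plexus in the levels of the 10 genes was not tested.

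**Figure D4:**
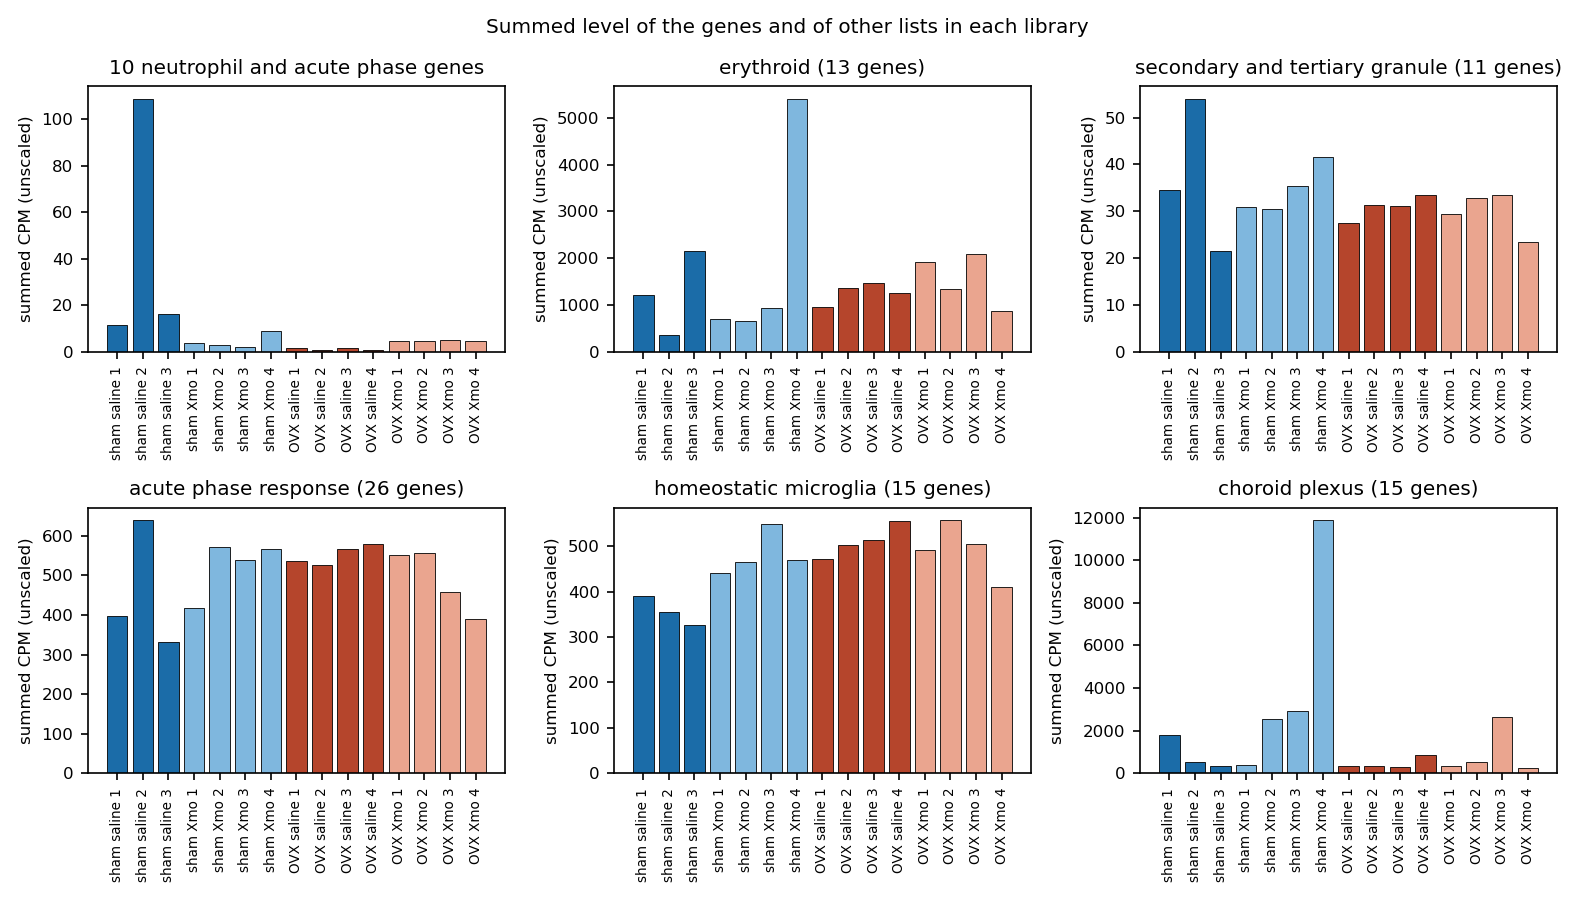
Summed unscaled CPM of the 10 genes and of 5 other gene lists, one bar per library, coloured by group, on linear axes from 0. The 10 genes peak at 109 in sham saline replicate 2, where the red blood cell list is at its lowest, 362.

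Other cells that can make some of these genes were read as TMM-scaled sums, because sham saline replicate 2 had a low scaling factor. Brain endothelium genes, 15 with Slco1a4, Slc2a1 and Flt1 the most abundant, summed to 384, 524 and 350.2 CPM in sham saline and to between 260.0 and 349.6 in the other groups. On this scale the sham saline libraries lay above all others. The unscaled sums overlapped, at 294 to 381 CPM in sham saline and 265 to 376 in the other groups. Of the 15 genes, 7 had their highest level in sham saline replicate 2, where 15% of all tested genes did. In OVX saline against sham saline, 13 of 15 were below 0, with a median log2 fold change of -0.45, and 4 fell past edgeR's test (Flt1, Ly6c1, Sox17 and Vwf). Of all tested genes, 2.59% fell past it in this comparison. Of 10 monocyte genes, 5 were highest in sham saline replicate 2, and of the 7 tested 3 were. The sums of this list, with Fn1, Nr4a1 and Vcan the most abundant, overlapped, at 184 to 211 CPM in sham saline and 118 to 259 in the other groups. In OVX saline against sham saline all 7 monocyte genes tested were below 0, with a median of -1.18. Ccr2, the receptor that brings monocytes into tissue, fell past the test. Genes of both lists thus lay in the same direction as the 10 genes there. Microglia genes, 15 with Csf1r among the most abundant, summed to 388 to 489 in sham saline and 414 to 528 elsewhere. Reactive astrocyte genes, 12 led by Gfap, summed to 384 to 613 in sham saline and 487 to 622 elsewhere, so both sums overlapped. In OVX saline against sham saline 12 of the 15 microglia genes were above 0, and Csf1r and Tmem119 rose past the test, as did 728 of all 19969 tested genes. In OVX saline against sham saline 6 of the 12 astrocyte genes were below 0, and Osmr and Cp fell past the test. These calls of list genes come from the fit that includes sham saline replicate 2, and no values without it are given for them. Over all genes, calls in OVX saline against sham saline went from 1246 to 186 without that library. The part of these cell types in the levels of the 10 genes was not tested.

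Other neutrophil genes were tallied from lists by granule class. Genes of the primary granules, which are made early in the marrow, were mixed: Elane had 2 counts over all libraries, Ctsg 6 and Ms4a3 0, while Serpinb1a averaged 8.15 CPM, Prss57 1.17 and Prtn3 0.628. These last genes passed the filter, and 0 of these 3 was highest in sham saline replicate 2. Of the 6 with counts 2 were, Ctsg and Mpo. Mpo had 92 counts in all and was at 0.432 CPM in that library. Of 11 further genes of the secondary and tertiary granules, 8 had their highest level in that library, among them Lyz2 at 36 CPM and Pglyrp1 at 9.99. Of the 7 that passed the filter, 4 did, where 15% of all tested genes did. Adam8, also among the 3 most abundant of that list, was highest in OVX saline replicate 2. In the list of mature neutrophil surface and cytosol genes, 16 of 24 with counts were highest in sham saline replicate 2, and 9 of the 13 tested. These included Csf3r, the G-CSF receptor, at 21.4 CPM and Ncf1 at 12.1, while Msrb1 was not among them. Ly6g, the usual surface marker of mouse neutrophils, had 5 counts in all, so the name of the gene group rests on granule and cytosol genes here.

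Genes of the acute phase response other than Lcn2 were highest in the same library in 11 of 22 cases with counts. Of the 14 tested, 8 were, where 15% of all tested genes were. Mt1, Mt2 and Serpina3n, the most abundant, were at 418, 198 and 92.1 CPM there and at most 242, 146 and 79.5 in the other 14 libraries. Among receptors and ligands of the encoded proteins, 11 of 23 were highest there, and 9 of the 20 tested. Slc22a17, a receptor for lipocalin 2, was at 249 CPM in that library and at 255 to 422 in the others. Of the red blood cell genes 0 of 13, and of the choroid plexus genes 0 of 15, were highest in that library. For OVX Xmo against sham Xmo, 0 genes passed edgeR's test in any of the 17 lists. The list medians of log2 fold change were -0.32 for secondary and tertiary granules (7 tested), -0.09 for mature neutrophil genes (13 tested) and -0.09 for the acute phase (14 tested), beside -0.02 over all genes.

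Of all genes past the filter, those most like the mean standardised log2 CPM of the 9 genes over the 15 libraries were Clec2d (Pearson r 0.89), Msn, Gm1966, Scgb3a1 and Gm44836 (r 0.88 each). Over the 12 libraries outside sham saline they were Adamts5 (r 0.92), 9330185C12Rik (0.88), Rbm20 (0.87), Anpep (0.87) and Emp3 (0.85). The lists share no gene. The values describe libraries that share groups, and the first list includes sham saline replicate 2, where all 9 genes were highest. Without that library the r values of the first list's genes were 0.71 to 0.79 over 14 libraries.

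The miRNA libraries give a separate readout. Of 12 miRNAs of myeloid cells, red blood cells and inflammation, 11 passed the filter. The mature sequences of those the values turn on are shown from RefSeq (GRCm38.p6), with the seed, bases 2 to 8, in capitals. miR-223-3p is the abundant miRNA of neutrophils, miR-155-5p and the miR-146 pair respond to inflammatory signals, and miR-451a is that of red blood cells. miR-146a-5p and miR-146b-5p share a seed.
miR-223-3p: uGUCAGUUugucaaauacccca
miR-155-5p: uUAAUGCUaauugugauaggggu
miR-146a-5p: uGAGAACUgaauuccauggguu
miR-146b-5p: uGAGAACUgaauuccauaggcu
miR-451a: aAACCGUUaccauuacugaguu

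miR-223-3p was at 13.7, 5.94 and 7.26 CPM in sham saline and at 3.52, 3.95 and 8.01 in sham Xmo. It was at 4.71, 4.73 and 7.70 in OVX saline and at 9.10, 11.4 and 15 in OVX Xmo. The OVX Xmo libraries lay above those of OVX saline and sham Xmo and overlapped sham saline. Against OVX saline the log2 fold change was 1.05 (SE 0.40, edgeR adjusted p = 0.539), and against sham Xmo it was 1.19 (SE 0.40, edgeR adjusted p = 0.921). Groups without overlap, in either direction, made up 15.4% and 7.44% of the 605 miRNAs tested in these comparisons. miR-155-5p was at 4.23, 3.64 and 3.71 CPM in OVX saline and at 4.89, 9.44 and 8.60 in OVX Xmo, a log2 fold change of 0.98 (SE 0.25, edgeR adjusted p = 0.254). miR-142a-3p, a miRNA of blood cells in general, was at 16.6 ± 4.49 CPM in the OVX saline libraries and 24.4 ± 3.23 in those of OVX Xmo (SD, n = 3 each), without overlap. miR-451a was at 9609 ± 3142 CPM in the OVX saline libraries and 9155 ± 1169 in those of OVX Xmo (SD, n = 3 each), with overlap.

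Of the 11 listed miRNAs, 0 passed edgeR's test in any of the 4 comparisons, where 0%, 0%, 0.165% and 0% of the 605 miRNAs passed. The order is OVX saline and then sham Xmo, each against sham saline, followed by OVX Xmo against OVX saline and against sham Xmo. At an unadjusted p under 0.05 the counts were 2, 1, 3 and 2 of 11, where 4.63%, 9.42%, 7.6% and 3.31% of all miRNAs were, and DESeq2 called 0 of the 11 in each. Without OVX Xmo replicate 1 the third count was 1, miR-155-5p, at a log2 fold change of 1.20 (edgeR adjusted p = 0.0247).

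**Figure D5:**
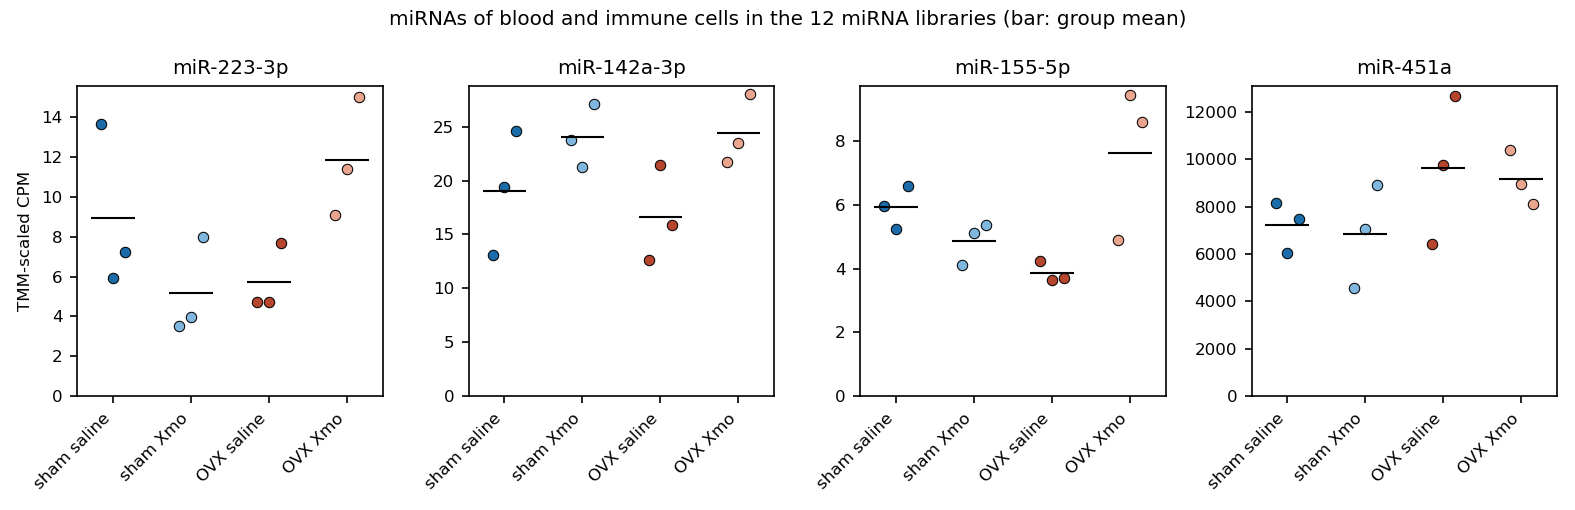
TMM-scaled CPM of 4 miRNAs of blood and immune cells in the 12 miRNA libraries by group, with a bar for the mean, on linear axes from 0. miR-223-3p lies at 9.10 to 15 in OVX Xmo, above 4.71 to 7.70 in OVX saline.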

How the data were processed

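Gene expression was measured in 15 and miRNAs in 12 hippocampus libraries. Per the labels' protocols, RNA was taken with Trizol and libraries were made with a TruSeq kit. Named without roles in the submitters' processing notes are Bowtie2 2.3.2, StringTie 1.3.3b, Trimmomatic 0.36, FastQC 0.11.2 and the build GRCm38.p6. The deposited gene table holds whole-number counts and TPM values, per the file headers, and the deposited miRNA table holds read counts. A further 12 columns match no sample and were not used. Among 7384 low genes, 58.5% of the counts from 1 to 20 were even. How strand and read pairs entered the counting is not known from the labels. Floors of 3 counts cover counting error only.

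Counts were filtered with filterByExpr (19969 genes and 605 miRNAs left), scaled by TMM and fitted with edgeR's quasi-likelihood model over the 4 groups together (residual degrees of freedom 11, and 8 in the miRNA table), and Benjamini-Hochberg adjusted p under 0.05 was the threshold. Each SE is the size of the log2 fold change divided by the root of F, and log2 CPM used a prior count of 2. The fits were tested on simulated counts with the same dispersion for every gene and no outlying library. That setting does not cover genes as variable as these. The versions were DESeq2 1.42.0, edgeR 4.0.16 and limma 3.58.1 under R 4.3.3. miRNA reads summed to between 9660869 and 10962296 per library.

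The genes, lists and comparisons were chosen with earlier results of these data known. Named from each list were at most 3 genes with the highest mean CPM, the 5 genes most like the members over each set of libraries, and the listed miRNAs. Exceptions chosen after their values were seen are Elane, Ctsg, Ms4a3, Mpo, Ly6g, the list genes named as past a test and those so marked. Alternatives were DESeq2, RLE scaling, no filter, the compared groups only, a replicate block and each library left out. Itgam, a name on 2 gene IDs, was left out of its list, and Ahsp was not matched.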

Additional observations from a re-analysis of the deposited data

Results flagged for a closer look

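Within groups of 4 libraries, 4 levels stood far from the other 3 by Dixon's criterion, of 28 groups checked. Chance gives about 1 in 20 for normally distributed values, which levels from low counts need not be. That rate does not hold where the other 3 libraries have 0 counts, as for S100a9 and Ltf. The OVX saline values of S100a9 were also among those that chose the genes. S100a9 was at 0.200 CPM in OVX saline replicate 1 and at 0 in the others, and Ltf was at 0.225 CPM in that library and at 0 in the others. In sham Xmo replicate 4, Ngp was at 2.05 CPM, against 0, 0.0974 and 0.339 in the others, and Ltf was at 0.767 CPM, against 0. Red blood cell genes summed to 5415 and choroid plexus genes to 11881 unscaled CPM in that library, the highest of all 15, and their part was not tested.

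The interaction term in edgeR's quasi-likelihood fit, the Xmo difference after ovariectomy less that after sham surgery, was 7.16 on the log2 scale for S100a9 (SE 1.26, adjusted p = 0.0354) and 8.02 for Lcn2 (SE 1.46, adjusted p = 0.0410), beside 0.27% of all genes higher past this test. It uses the sham saline and OVX saline libraries that chose the genes, so it is a description. Without sham saline replicate 2 the values were 5.97 and 5.55. The count of genes past this test, 2, was 0 without sham Xmo replicate 3, any OVX saline library or OVX Xmo replicate 3 or 4, and 1 without sham saline replicate 3 or sham Xmo replicate 4.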

How the results depend on the processing

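For OVX Xmo against sham Xmo and OVX Xmo against OVX saline, the count of genes past the test was 0 in edgeR, DESeq2, RLE scaling, no low-count filter, the replicate block, only the groups compared and each library left out. Retnlg, Ltf and Fgr did not pass the low-count filter with only the groups compared, nor Fgr without sham Xmo replicate 3, so those counts cover fewer genes. With the replicate block the counts were 2 for OVX saline against sham saline (7 without the block), and 0 for sham Xmo and for OVX Xmo, both against sham saline, and for the interaction (2 each without). The deviations of same-numbered libraries of different groups correlated at r -0.215 to 0.186 (21 pairs) and, for miRNAs, at -0.517 to 0.396 (18 pairs). The medians were -0.0373 and 0.00999. These values do not show whether the numbers pair the samples. For sham Xmo and OVX Xmo against sham saline, the count was 1 each with no low-count filter and 0 each with only the groups compared, and DESeq2 gave 1 for the latter. With each library left out in turn the counts ran from 2 to 8 for OVX saline against sham saline, 0 to 3 for sham Xmo and 0 to 2 for OVX Xmo, both against sham saline, 0 to 3 for the interaction, and 0 to 1 for miRNAs in OVX Xmo against OVX saline. The cause was not tested. Over all genes, DESeq2 called 2322 for OVX saline against sham saline where edgeR called 1246 and, without sham saline replicate 2, 186; with the replicate block it called 178 and with no low-count filter 568. These numbers were 1117, 302, 227, 37 and 108 where sham Xmo was set against sham saline, 1087, 237, 16, 2 and 56 where OVX Xmo was, and 824, 83, 255, 11 and 20 in the interaction. With each library left out, edgeR called 80 (without sham saline replicate 3) to 1706 for OVX saline and 14 (without the same library) to 673 for sham Xmo, and 2 (without OVX Xmo replicate 1) to 983 for OVX Xmo, all against sham saline, and 6 (without sham Xmo replicate 3) to 302 in the interaction. With only the groups compared, edgeR called 6 for sham Xmo and 4 for OVX Xmo against sham saline. Of 1039 values of single genes under an alternative, 940 stayed called or uncalled as before, 92 lost the call and 7 gained it. While 0 called values changed sign, 14 uncalled ones, counted within the 940, did. Among them were S100a8, Lcn2, Ngp and Ltf in OVX Xmo against sham Xmo. Counts near the floor of 3 per library limit Camp, Ltf, Retnlg and Fgr most.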

Other observations

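Further list genes, chosen after their values were seen, had their highest level in sham saline replicate 2. Sele and Selp encode the endothelial selectins that slow neutrophils on the vessel wall. Sele was at 2.31 CPM there, at 0.164 in sham saline replicate 3 and at 0 counts in the other 13 libraries. Selp was at 3.07 CPM there and at most 0.246 elsewhere. Mmp8 and Chil3, products of neutrophil granules and of myeloid cells, were at 3.80 and 4.90 CPM there and at most 0.452 and 0.225 elsewhere. Lrg1, an acute phase glycoprotein, was at 5.67 CPM against at most 1.56, and Osmr, the oncostatin M receptor of reactive astrocytes, was at 34.1 CPM against at most 10.7. Of the 12 reactive astrocyte genes tested, only 3 were highest in that library, where 15% of all tested genes were. Cp, the copper-carrying acute phase protein ceruloplasmin, was at 77.3 CPM against at most 24.5. Saa3 was at 0.528 CPM against at most 0.227, and Orm1 had 0 counts in every library.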
